A study of Homo sapiens with 18 samples.

Results

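The MCM (minichromosome maintenance) replication helicase genes were followed across all libraries of the series. The members were the rows of the count files whose Ensembl identifier carries the symbol MCM2, MCM3, MCM4, MCM5, MCM6, MCM7, MCM8, MCM9 or MCM10. These are 9 of the 57905 gene rows, and all 9 had enough reads to be tested in every comparison. RNA had been sequenced in 18 libraries from 2 human lines, KMS12-BM, labelled multiple myeloma, and JJN3, labelled plasma cell leukemia. Each line had 3 libraries of untreated cells given DMSO, the solvent, 3 of cells treated with amiloride and 3 of cells treated with TG003. Amiloride, a potassium-sparing diuretic that blocks epithelial sodium channels, was used for 24 h at 0.1 mM in KMS12-BM and at 0.4 mM in JJN3. TG003, which inhibits CLK kinases, the enzymes that phosphorylate SR splicing factors, was used for 24 h at 0.4 mM in both lines. The labels give no duration for DMSO. They do not state if replicate libraries are separate cultures, so the p-values measure the spread between these libraries, which may be technical.

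The products of MCM2 to MCM7 form the ring-shaped hexamer that opens DNA ahead of the replication fork. The ring is loaded onto origins in G1 by the origin recognition complex, CDC6 and CDT1, and is switched on in S phase when CDC45 and the GINS complex join it to make the CMG helicase. MCM10 is needed for that activation step and does not belong to the ring. MCM8 and MCM9 form a separate helicase that works in homologous recombination. Transcription of most of these genes is driven by E2F factors as cells enter the cycle, so their products serve as markers of proliferating cells, including in myeloma.

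The promoters are shown first because, as background, E2F factors drive most of these genes as cells enter the cycle. The role of E2F factors in these cells was not tested. RefSeq promoter windows (GRCh38.p14, 250 bases before to 50 after the start of transcription) were matched by symbol for 7 of the 9 genes, in 9 windows, MCM7 having 3 starts. MCM4 and MCM5 had no window. The E2F words searched on both strands were TTTCCCGC, TTTCGCGC, TTTGCCGC and TTTGGCGC. At least 1 of them occurred in MCM2, MCM3, MCM6, MCM7 and MCM8, that is in 5 of 7 genes, against 3.31% of the 35116 windows of all genes. In MCM7 they lay in 1 of its 3 windows. For each word a gene was counted if any of its windows held it, while the background is per window, so the measures differ. The words CCAAT (6 of 7 genes, against 34.61% of all windows) and GGGCGG, the GC box (6 of 7 genes, against 44.95%), were common everywhere. The stretches around the E2F words are printed 5′ to 3′ on the strand of the gene, with the E2F words in capitals. In MCM2 and MCM6 a forward word overlaps a reverse word, and the pair is capitalised as 1 block:
MCM2 (chr3:127598404-127598433, plus strand): tgaaccactTTTCGCGCGAAAcctggttgt
MCM3 (chr6:52284898-52284927, minus strand): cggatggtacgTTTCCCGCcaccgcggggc
MCM3 (chr6:52284728-52284757, minus strand): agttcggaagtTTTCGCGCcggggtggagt
MCM6 (chr2:135876504-135876603, minus strand): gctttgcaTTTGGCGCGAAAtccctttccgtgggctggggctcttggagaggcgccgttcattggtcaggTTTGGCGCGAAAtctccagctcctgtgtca
MCM7 (chr7:100101566-100101595, minus strand): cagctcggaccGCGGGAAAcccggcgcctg
MCM7 (chr7:100101388-100101417, minus strand): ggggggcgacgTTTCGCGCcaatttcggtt
MCM8 (chr20:5950667-5950696, plus strand): ggatcactgaaGCGCCAAAaaagaatttag
The overlapping pair of MCM2 lies just downstream of the start, its first base at position 3, and MCM6 holds such a pair at 2 places, both upstream of the start. The windows of MCM9 and MCM10 held none of these words, which says only that these letters are not in those windows. A match is a description of the sequence and not a measured binding site.

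In the hg19 (GRCh37) coordinates that the count files use, MCM2 lies at chr3:127317253-127341279, MCM3 at chr6:52128812-52149679, MCM4 at chr8:48872745-48890720 and MCM5 at chr22:35796127-35821424. MCM6 lies at chr2:136597196-136634013, MCM7 at chr7:99689856-99699563, MCM8 at chr20:5931298-5979623, MCM9 at chr6:119134605-119256327 and MCM10 at chr10:13203558-13253110. The values are reads over all exons of a gene, so isoforms were not separated. MCM7 and MCM9 each overlap a coding gene on the opposite strand, AP4M1 by 392 bases of exon and ASF1A by 205 bases. The library kit marks strand, but the strand setting of the counting is not given in the sources used here, so reads in those stretches are uncertain. In the annotation at hand MCM8 shares 2564 bases of exon with a coding gene model on the same strand, and MCM2 shares 1113 bases with a noncoding one on the opposite strand; neither model has a row in the count files.

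Reads assigned to genes ranged from 23707695 to 50570234 per library, of which the MCM genes took 0.310% to 0.498%. A single MCM gene had between 329 (MCM9) and 81286 (MCM7) reads in a library. MCM9 and MCM10 had the fewest, 329 and 433 at the lowest, so counting error is relatively largest for these, and its part in their spread was not tested. The 6 TG003 libraries stood apart from the other 12. Their reads placed at more than 1 genomic position were 7.79% to 9.13% of the total against 13.3% to 17.4%, and processed pseudogenes took 0.106% to 0.130% of their gene reads against 4.49% to 5.61%. This difference follows the drug, so the 2 cannot be told apart in any comparison with TG003. In the amiloride libraries mitochondrial transcripts were 0.265% to 1.035% of gene reads, and in all others at least 1.98%. The 7 plasma cell markers together had 727.8 to 3088 CPM (the usual per-library scaling of read counts, here on the TMM-scaled library size), and IRF4 made up the largest part of that sum. The sum moved with the drugs: in KMS12-BM it was 1724 to 1869 CPM untreated, 2711 to 3088 after amiloride and 727.8 to 751.3 after TG003, and in JJN3 1780 to 1939, 1301 to 1745 and 974.7 to 1061. Not every marker was abundant. SDC1 had 162 CPM in untreated JJN3 but 13.6 in untreated KMS12-BM and 2.58 and 3.08 there after amiloride and TG003, SLAMF7 had at most 1.99 CPM as a group mean, and CD38 had 4.34 CPM in untreated JJN3. The part of these shifts in the MCM values was not tested. T cell markers together stayed at or under 2.71 CPM and myeloid markers at or under 1.825 CPM, and PAX5, a B cell gene, was expressed in untreated KMS12-BM at 51.9 CPM. The 4 stromal and epithelial markers (COL1A1, COL1A2, EPCAM and KRT8) were not near 0. Together they had 130.8 to 149.9 CPM in untreated KMS12-BM and 22.48 to 26.07 CPM in untreated JJN3. Over all libraries that sum ran from 19.75 to 196.5 CPM.

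The lines differed most in which hexamer gene was abundant. In untreated cells MCM3 was 4.98-fold higher in JJN3 than in KMS12-BM, and MCM7 was 2.75-fold higher in KMS12-BM. MCM4, MCM5, MCM6 and MCM10 were also higher in JJN3 (1.2- to 1.41-fold), and MCM9 was lower (1.6-fold). Of the 9 genes, 5 were higher and 2 lower in JJN3, against 39.3% and 36.8% of all tested genes. In either direction 76% of all genes passed the same threshold, a Benjamini-Hochberg adjusted p under 0.05 in edgeR's quasi-likelihood test. The ranges of the 3 libraries did not overlap for 7 of the 9, against 78.5% of all genes. The share of members called is thus near the background. Among the log2 differences of all genes tested, MCM3 stood at percentile 87.4 and MCM7 at percentile 15.4, so many genes differed more in each direction.

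MCM3, a hexamer subunit, had 334, 356.5 and 351 CPM in the 3 untreated KMS12-BM libraries and 1834, 1667 and 1678 CPM in the 3 of JJN3. Every JJN3 library lay far above every KMS12-BM library. The log2 difference, JJN3 minus KMS12-BM, was 2.32 ± 0.085 (standard error, as in all log2 values below), a 4.98-fold excess (adjusted p = 9.2e-16, edgeR).
MCM7, the subunit whose introns carry a microRNA cluster, had 1527, 1385 and 1377 CPM in KMS12-BM and 572, 464 and 525 CPM in JJN3. Here the order of the lines was reversed, again with wide separation. The log2 difference was -1.46 ± 0.106 (adjusted p = 8.29e-11, edgeR).
MCM9 was the gene with the lowest level. It had 21.9, 20.6 and 19.9 CPM in KMS12-BM and 11.9, 13.3 and 13.9 CPM in JJN3, with no overlap and a log2 difference of -0.68 ± 0.097 (adjusted p = 2.35e-06, edgeR).

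The other hexamer genes differed less. MCM5 was higher in JJN3 by 0.50 ± 0.10 and MCM6 by 0.39 ± 0.097 on the log2 scale (adjusted p = 0.000133 and 0.00108, edgeR). MCM10, the activation factor, was higher by 0.37 ± 0.116 (adjusted p = 0.00715, edgeR), and without the first JJN3 library the value was 0.28 with an adjusted p of 0.0524. MCM4 was higher by 0.26 ± 0.11 (adjusted p = 0.0382, edgeR), and that call is fragile. It was lost without the second or the third KMS12-BM library or the first JJN3 library (0.21 to 0.26, adjusted p 0.0771 to 0.124), with upper-quartile scaling (0.22) and with the trend of counts on GC content removed (0.21). MCM2 (-0.053, 95% interval -0.27 to 0.17) and MCM8 (-0.078, -0.28 to 0.12) did not pass.

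**Figure D1:**
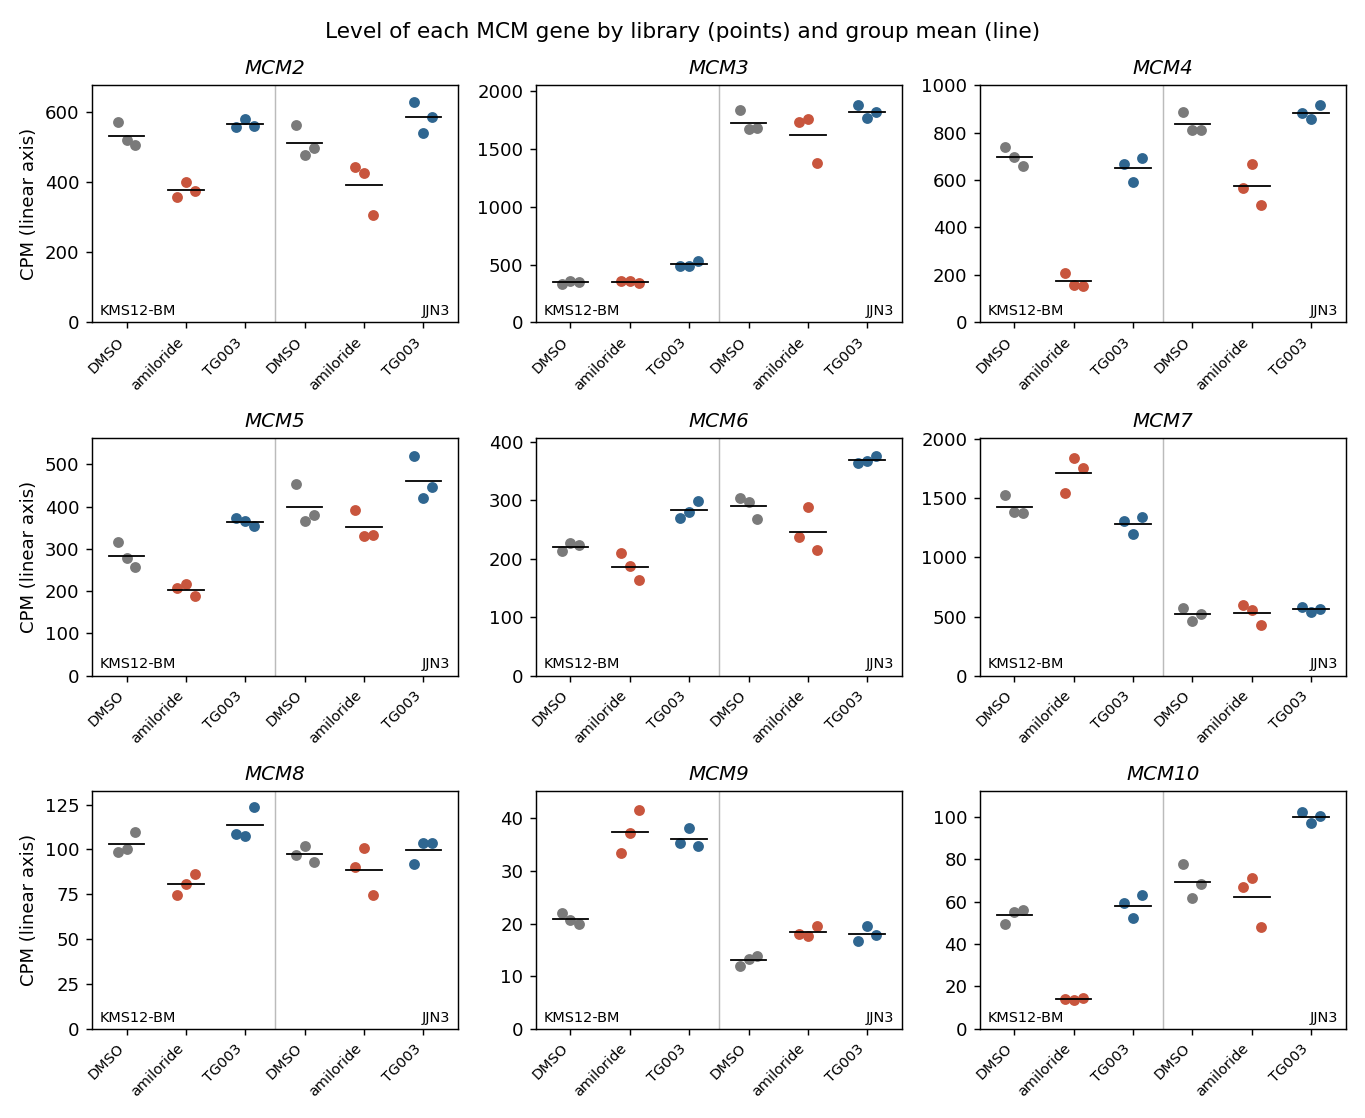
Level of each MCM gene in CPM (linear axis from 0), 1 panel per gene, with a point for each of the 18 libraries and a line at the mean of each group of 3. MCM3 sits at 334 to 356.5 CPM in untreated KMS12-BM and at 1667 to 1834 CPM in untreated JJN3, MCM7 shows the reverse order, and MCM4 and MCM10 drop under amiloride in KMS12-BM.

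To compare genes with each other, CPM was divided by the length of the canonical transcript in kilobases. On this per-length scale the sum over MCM2 to MCM7 was 1160 ± 56.5 (SD, n = 3) in untreated KMS12-BM and 1321 ± 90.5 in untreated JJN3. The make-up of that sum differed more than its size. MCM7 made up 49.95% ± 0.689 of it in KMS12-BM and 15.94% ± 0.831 in JJN3, while MCM3 made up 9.773% ± 0.767 and 42.62% ± 0.671. In each line a single subunit gene therefore accounted for the largest share of the hexamer transcripts, MCM7 in KMS12-BM and MCM3 in JJN3. The remaining 4 subunit genes had between 5.08% (MCM6) and 14.8% (MCM4) in untreated KMS12-BM and between 5.84% (MCM6) and 15.6% (MCM4) in untreated JJN3. Outside the ring the per-length levels were far lower, 11.8 ± 0.803 for MCM10, 13.7 ± 0.801 for MCM8 and 3.99 ± 0.195 for MCM9 in untreated KMS12-BM. These shares depend on the transcript length chosen and are given without a test.

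**Figure D2:**
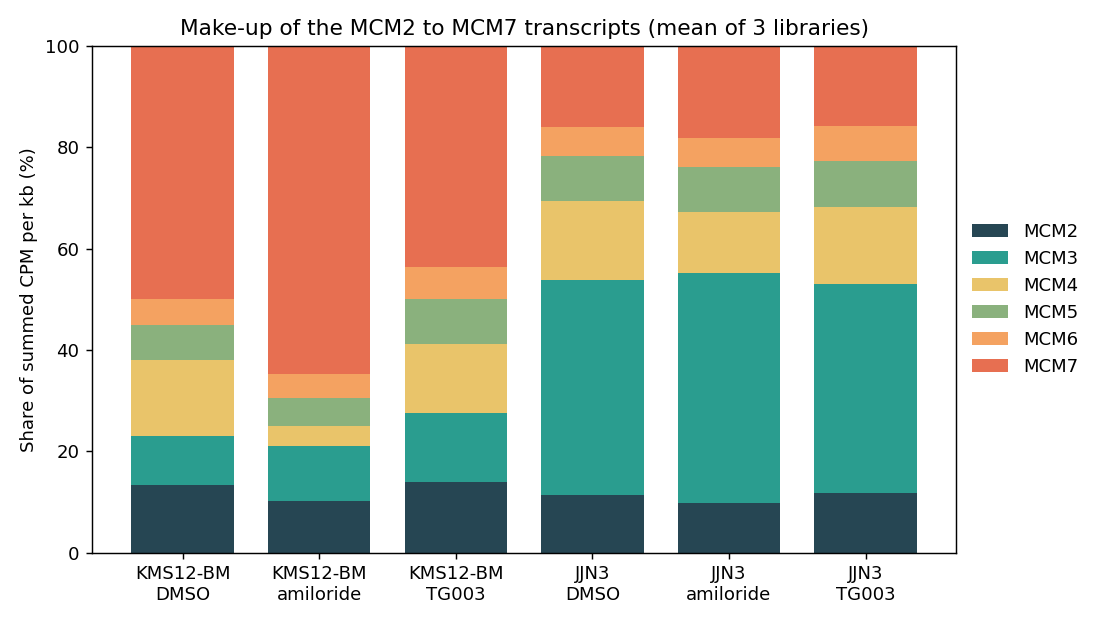
Share of each subunit gene in the summed per-length level (CPM per kilobase) of MCM2 to MCM7, in percent, as the mean of 3 libraries in each group. MCM7 fills 49.95% of the bar in untreated KMS12-BM and 64.83% after amiloride, whereas MCM3 fills 42.62% in untreated JJN3.

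Amiloride at 0.1 mM split the MCM genes of KMS12-BM. MCM4 fell 4.03-fold and MCM10 3.79-fold. MCM2, MCM5, MCM6 and MCM8 fell by 1.18- to 1.41-fold, MCM7 rose 1.2-fold and MCM9 rose 1.8-fold, while MCM3 did not pass the test. Of the 9 genes, 6 fell and 2 rose, against 35.2% of all tested genes that fell, 33.5% that rose and 68.7% called in either direction. Their median log2 change was -0.35, against -0.02 over all genes tested. For 8 of the 9 the library ranges did not overlap, against 71.7% of all genes.

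MCM4 had 739, 695.5 and 661 CPM in the untreated KMS12-BM libraries and 209, 158 and 152 CPM after amiloride. All treated libraries lay far below the lowest untreated library. The log2 change was -2.01 ± 0.121 (adjusted p = 1.33e-07, edgeR).
MCM10 had 49.4, 55.15 and 56.1 CPM untreated and 14.1, 13.7 and 14.55 CPM after amiloride. The treated libraries lay closer together than the untreated ones and far below them. The log2 change was -1.92 ± 0.095 (adjusted p = 4.24e-08, edgeR). Both genes kept their call under every alternative that was run, with MCM4 between -2.17 and -1.92 and MCM10 between -2.15 and -1.90.

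Among the remaining subunit genes, MCM2 had 570, 518.5 and 505 CPM untreated and 357, 401 and 374 CPM treated, with no overlap (-0.49 ± 0.072, adjusted p = 8.25e-05, edgeR). MCM5 had 315, 278 and 256 CPM untreated and 208, 216 and 187 CPM treated, also without overlap (-0.475 ± 0.088, adjusted p = 0.000481, edgeR). Both transcripts are rich in G and C, 57.4% for MCM2 and 56.3% for MCM5. With each library's trend of counts on GC content removed, the changes were -0.071 and -0.095 and neither passed (adjusted p = 0.387 and 0.263, edgeR), and MCM3 was called higher by 0.18 (adjusted p = 0.0207). MCM4 and MCM10 passed after that step too, at -2.02 and -2.15.

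MCM6 had 213, 226 and 223 CPM untreated and 209, 187 and 163 CPM treated. The groups did not overlap, but the first library of each came close to the other group. The change was -0.24 ± 0.09 (adjusted p = 0.0313, edgeR), and the call was lost on leaving out the second or the third library of either group (-0.24 to -0.15, adjusted p 0.065 to 0.119) or when only these 2 groups were fitted (-0.23). With the GC trend removed the fall was larger, -0.49 (adjusted p = 0.000799).
MCM7 had 1527, 1385 and 1377 CPM untreated and 1546, 1844 and 1756 CPM treated, so that the lowest treated library lay just above the highest untreated one. It rose by 0.26 ± 0.083 (adjusted p = 0.0147, edgeR). That call was lost without the second or the third untreated library or the second treated one (0.21 to 0.24, adjusted p 0.0578 to 0.0676), and the rise was 0.62 with the GC trend removed.
MCM3 had 334, 356.5 and 351 CPM untreated and 360, 354 and 343 CPM treated, and the groups overlapped. Its log2 change was 0.023, with a 95% interval of -0.12 to 0.17.

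The genes of the MCM8-MCM9 helicase moved in opposite directions. MCM8 had 98.55, 100.2 and 109.7 CPM untreated and 74.7, 80.7 and 86.2 CPM treated, with no overlap, and fell by 0.35 ± 0.084 (adjusted p = 0.0028, edgeR). With the GC trend removed its change was -0.65 (adjusted p = 4.17e-06). MCM9 had 21.9, 20.6 and 19.9 CPM untreated and 33.5, 37.2 and 41.5 CPM treated, every treated library above every untreated one. It rose by 0.85 ± 0.095 on the log2 scale (adjusted p = 1.01e-05, edgeR). ASF1A, which overlaps MCM9 on the other strand, rose by 0.81 in the same comparison, and its part in the MCM9 value was not tested. AP4M1, which overlaps MCM7, fell by 1.60 while MCM7 rose.

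Because MCM4 fell so far and MCM7 rose, the make-up of the hexamer transcripts shifted in KMS12-BM. The per-length share of MCM4 was 14.82% ± 0.217 untreated and 4.006% ± 0.92 after amiloride, and that of MCM7 was 49.95% ± 0.689 and 64.83% ± 2.7 (SD, n = 3). The summed per-length level was 1071 ± 57.7 after amiloride against 1160 ± 56.5 untreated, and the library ranges, 1015 to 1130 and 1116 to 1223, overlapped. In RNA from whole cultures, fewer cycling cells and less of a transcript per cell cannot be told apart.

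In JJN3 amiloride was given at 0.4 mM, and fewer MCM genes passed. MCM4 and MCM2 fell by 1.46- and 1.31-fold, MCM9 rose 1.41-fold, and the other 6 did not pass. That is 2 of 9 lower and 1 higher, against 23.9% and 19.7% of all tested genes and 43.6% in either direction. The library ranges were apart for 3 of the 9, against 51.7% of all genes. The median log2 change of the 9 was -0.16, against -0.034 over all genes.

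MCM4 had 888, 809 and 811 CPM in untreated JJN3 and 566, 667 and 496 CPM after amiloride. Every treated library lay below every untreated one. The change was -0.545 ± 0.095 (adjusted p = 0.000573, edgeR), and it passed under every alternative that was run.
MCM2 had 563, 477 and 496 CPM untreated and 443, 425 and 307 CPM treated, with no overlap and 1 treated library well below the other 2. The change was -0.39 ± 0.126 (adjusted p = 0.024, edgeR). It was lost without the first untreated library (-0.32, adjusted p = 0.085) or the third treated one (-0.25, adjusted p = 0.0578), with the GC trend removed (-0.31) and when only the 2 groups were fitted (-0.37).
MCM9 had 11.9, 13.3 and 13.9 CPM untreated and 18, 17.6 and 19.5 CPM treated, all treated libraries above all untreated ones. It rose by 0.49 ± 0.095 (adjusted p = 0.0012, edgeR).

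MCM10, which fell 3.79-fold in KMS12-BM, had 77.65, 61.6 and 68.3 CPM untreated and 67.1, 71.2 and 48.2 CPM treated in JJN3. The groups overlapped, and the change of -0.16 had a 95% interval of -0.45 to 0.12. MCM6 came near the threshold at -0.24 (adjusted p = 0.0551, edgeR) and passed with the GC trend removed (-0.25, adjusted p = 0.0303). MCM5 (-0.19), MCM8 (-0.15), MCM3 (-0.099) and MCM7 (0.008, -0.24 to 0.26) did not pass either. The third amiloride library had the lowest treated value for MCM2, MCM3, MCM4, MCM6, MCM7, MCM8 and MCM10.

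The difference between the lines was itself tested, as an interaction in a fit of all 18 libraries. For MCM4 the amiloride change was higher (less negative) in JJN3 than in KMS12-BM by 1.48 ± 0.156 and for MCM10 by 1.77 ± 0.168 (adjusted p = 2.75e-07 and 7.17e-08, edgeR). MCM9 rose less in JJN3, by -0.35 ± 0.135 (adjusted p = 0.0433, edgeR). That is 3 of 9 genes, against 43.2% of all genes tested. The MCM9 difference lost its call under 14 of 22 alternatives, the MCM4 and MCM10 differences under none. With the GC trend removed MCM9 did not pass (-0.18, adjusted p = 0.297), while MCM7 and MCM8, at -0.25 and 0.21 without that step, did (-0.52 and 0.47, adjusted p = 0.00737 and 0.0033). The dose was 0.1 mM in one line and 0.4 mM in the other, so line and dose cannot be told apart.

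**Figure D3:**
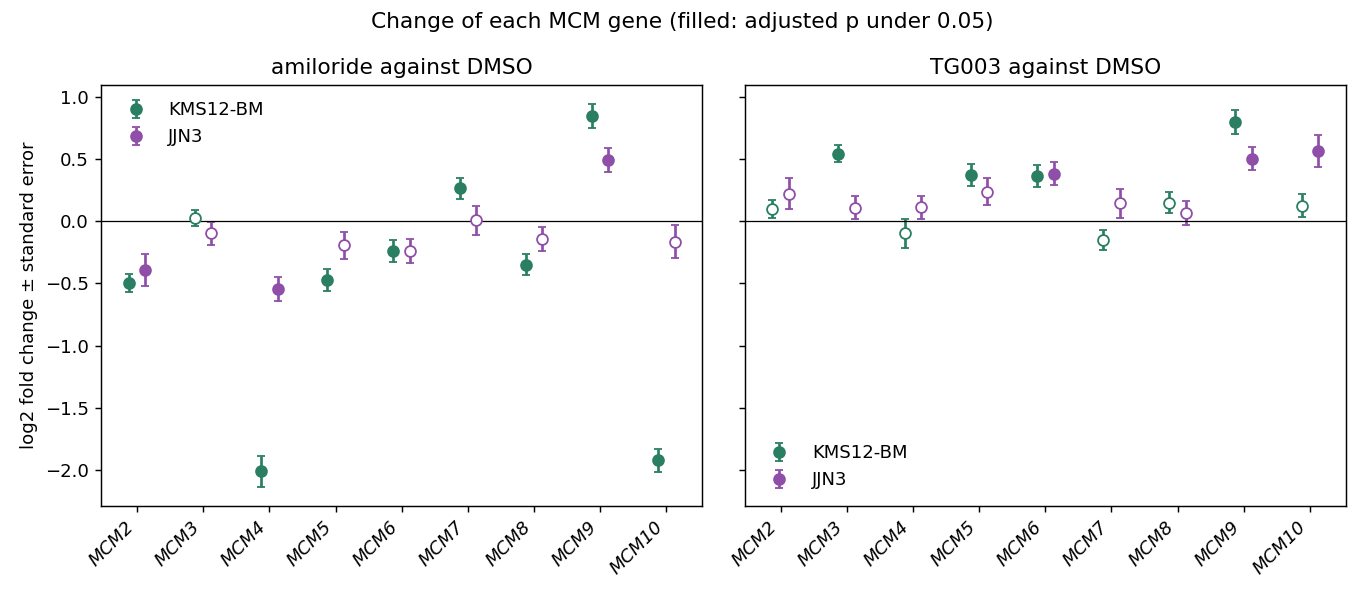
Log2 fold change against DMSO of each MCM gene, with its standard error, for amiloride (left) and TG003 (right) in both lines; a filled point passed an adjusted p under 0.05. Under amiloride MCM4 and MCM10 lie near -2 in KMS12-BM and at -0.545 and -0.16 in JJN3, and MCM9 lies above 0 in all 4 comparisons.

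Some MCM genes were higher after TG003, and none was lower past the threshold. The different read placement of the TG003 libraries, given above, cannot be told apart from the drug here. In KMS12-BM MCM3, MCM5, MCM6 and MCM9 rose, by 1.29- to 1.74-fold. In JJN3 MCM6, MCM9 and MCM10 rose, by 1.3- to 1.48-fold. These are 4 of 9 genes in KMS12-BM, where 26.9% of all genes rose, 31.7% fell and 58.6% changed either way, and 3 of 9 in JJN3, where 26.2% rose, 32.1% fell and 58.3% changed. Library ranges were apart for 5 of 9 (68.6% of all genes) and for 3 of 9 (66.3%). Counted in either direction, the members were thus called and set apart no more often than genes at large. Median log2 changes of the 9 were 0.15 and 0.22, against -0.028 and -0.038 over all genes. These comparisons use the same DMSO libraries as those with amiloride.

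MCM3 in KMS12-BM had 334, 356.5 and 351 CPM untreated and 490, 486 and 534 CPM after TG003, without overlap. It rose by 0.54 ± 0.066 (adjusted p = 2.97e-05, edgeR). In JJN3, where MCM3 starts far higher, it had 1834, 1667 and 1678 CPM untreated and 1876, 1767 and 1821 CPM after TG003, and the groups overlapped (0.11, 95% interval -0.093 to 0.31). The change was lower in JJN3 than in KMS12-BM by -0.46 ± 0.114 (adjusted p = 0.00998, edgeR). MCM3 was the only one of the 9 whose TG003 response differed between the lines past the threshold, against 7.13% of all genes with a lower response, 6.8% with a higher one and 13.9% in either direction. The dose was the same in both lines.

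MCM6 rose in both lines. It had 213, 226 and 223 CPM untreated and 269, 280 and 299 CPM after TG003 in KMS12-BM (0.36 ± 0.09, adjusted p = 0.00449, edgeR). It had 304, 296.5 and 267 CPM untreated and 364, 367 and 376 CPM after TG003 in JJN3 (0.38 ± 0.094, adjusted p = 0.00352, edgeR). Neither pair of groups overlapped, and the difference between the lines was -0.007 (95% interval -0.29 to 0.28).
MCM9 also rose in both. In KMS12-BM it had 21.9, 20.6 and 19.9 CPM untreated and 35.3, 38.1 and 34.8 CPM after TG003, and in JJN3 11.9, 13.3 and 13.9 CPM untreated and 16.7, 19.5 and 17.8 CPM after TG003. Again no library of one group reached into the other. The changes were 0.80 ± 0.095 and 0.50 ± 0.095 (adjusted p = 2.65e-05 and 0.000563, edgeR). ASF1A on the other strand of MCM9 fell under TG003, by 0.62 in KMS12-BM and 0.44 in JJN3.

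MCM5 had 315, 278 and 256 CPM in untreated KMS12-BM and 372, 366 and 355 CPM after TG003, without overlap (0.37 ± 0.088, adjusted p = 0.00353, edgeR). In JJN3 the MCM5 values overlapped, with 454, 365 and 381 CPM untreated and 519, 421 and 445 CPM after TG003 (0.24 ± 0.11, adjusted p = 0.0801, edgeR). With the set of library numbers as a block, which pairs the libraries of a set, MCM5 passed in JJN3 at 0.24 (adjusted p = 0.00317), and with the GC trend removed it passed at 0.26 (adjusted p = 0.025).
MCM10 had 77.65, 61.6 and 68.3 CPM in untreated JJN3 and 102.4, 97.1 and 100.6 CPM after TG003, with no overlap and a tight treated group (0.56 ± 0.13, adjusted p = 0.0028, edgeR). In KMS12-BM it had 49.4, 55.15 and 56.1 CPM untreated and 59.3, 52.1 and 63.1 CPM after TG003, with overlap (0.125, 95% interval -0.072 to 0.32).
MCM2 (0.094 and 0.22), MCM4 (-0.096 and 0.11), MCM7 (-0.15 and 0.14) and MCM8 (0.15 and 0.065) did not pass in either KMS12-BM or JJN3. With upper-quartile scaling MCM2 (0.17) and MCM8 (0.224) passed in KMS12-BM (adjusted p = 0.0486 and 0.0313, edgeR). In JJN3 MCM2 passed with no filter on low counts (0.22, adjusted p = 0.0327, edgeR). It also passed there with the compared groups alone (0.216, adjusted p = 0.0474, edgeR).

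In JJN3 both drugs were given at 0.4 mM, and their libraries were compared with each other. The TG003 libraries also differed in reads placed at more than 1 position and in processed pseudogenes. That difference cannot be told apart from the drug in either line. MCM2, MCM4, MCM5, MCM6 and MCM10 were lower after amiloride, by 1.35- to 1.65-fold, and none was higher. That is 5 of 9 genes, against 28.9% of all genes lower, 33.3% higher and 62.2% called either way, and the ranges were apart for 6 of 9 (67.3% of all genes). MCM10 differed most, with 67.1, 71.2 and 48.2 CPM after amiloride and 102.4, 97.1 and 100.6 CPM after TG003 (-0.73 ± 0.13, adjusted p = 0.000412, edgeR). MCM4 followed with -0.66 ± 0.095 and MCM6 with -0.62 ± 0.094 (adjusted p = 4.94e-05 and 7.57e-05, edgeR). The MCM9 libraries overlapped between the drugs, with 18, 17.6 and 19.5 CPM after amiloride and 16.7, 19.5 and 17.8 CPM after TG003 (-0.01, 95% interval -0.21 to 0.19). MCM3 (-0.21, adjusted p = 0.0678), MCM8 (-0.21, adjusted p = 0.0719) and MCM7 (-0.13) did not pass in edgeR.

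In KMS12-BM the doses of the drugs differed, 0.1 mM amiloride and 0.4 mM TG003, so drug and dose cannot be told apart there. Between those groups 7 MCM genes were lower after amiloride and MCM7 alone was higher, against 36.9% and 40.9% of all genes and 77.8% in either direction. Ranges were apart for 8 of 9, against 80.2%. MCM10 differed by -2.05 ± 0.095 and MCM4 by -1.92 ± 0.121 (adjusted p = 4.19e-09 and 6.22e-08, edgeR). MCM7 was higher by 0.41 ± 0.083 (adjusted p = 0.000718, edgeR). Removing the GC trend moved MCM7 to 0.74 and brought MCM2 from -0.59 to -0.21, MCM3 from -0.52 to -0.33 and MCM5 from -0.845 to -0.50, all still called, and upper-quartile scaling put MCM7 at 0.265. The MCM9 groups overlapped, at 37.4 ± 4.01 and 36.1 ± 1.8 CPM (SD, n = 3), with a log2 difference of 0.046 (95% interval -0.16 to 0.25).

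Ordered over the 6 groups by mean, MCM4, MCM5, MCM6, MCM8, MCM2 and MCM10 were lowest in amiloride-treated KMS12-BM. For MCM2 and MCM8 that group overlapped the next, amiloride-treated JJN3. MCM2, MCM3, MCM4, MCM5, MCM6 and MCM10 were highest in TG003-treated JJN3. For MCM2, MCM3, MCM4 and MCM5 that group overlapped the next, and for MCM6 and MCM10 it did not. For MCM4 the mean fell from 884 ± 28.8 CPM in TG003-treated JJN3 through 836 ± 45.1 in untreated JJN3, 698.5 ± 39 in untreated KMS12-BM, 651 ± 51.4 in TG003-treated KMS12-BM and 576 ± 86.2 in amiloride-treated JJN3 to 173 ± 31.3 in amiloride-treated KMS12-BM (SD, n = 3). Neighbours in that order overlapped except untreated JJN3 against untreated KMS12-BM, and the last step. For MCM10 the order ran from 100.1 ± 2.7 CPM in TG003-treated JJN3 to 14.1 ± 0.405 CPM in amiloride-treated KMS12-BM. Its 4 middle groups, between 53.55 ± 3.65 and 69.2 ± 8.05 CPM, each overlapped the next. MCM3 put all 3 JJN3 groups (1620 to 1822 CPM as means) above all 3 of KMS12-BM (347 to 503 CPM), and MCM7 did the reverse (520 to 562 CPM in JJN3 and 1282 to 1715 CPM in KMS12-BM). MCM9 was highest after amiloride or TG003 in KMS12-BM, which overlapped, and lowest in untreated JJN3, which stood below all other groups. MCM8 ranged from 80.55 ± 5.77 to 113.5 ± 8.9 CPM, and each group overlapped the next in order.

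Across the 18 libraries, log2 CPM centred on each line's mean gave a common profile of MCM2 to MCM7. MCM2 (Pearson r = 0.951), MCM5 (0.936), MCM4 (0.90), MCM6 (0.889) and MCM3 (0.727) followed it, being part of it, and so did MCM10 (0.923) and MCM8 (0.839), which are not. MCM7 (-0.307) and MCM9 (-0.299) did not. Among the single pairs, MCM4 and MCM10 had r = 0.961. The 5 other genes most like the profile, of 10958 with a mean of at least 5 CPM, were GINS2 (r = 0.968), a subunit of the GINS complex, then UQCRC1 (0.963), a core protein of respiratory complex III, GSTZ1 (0.962), CLPB (0.961) and ASTN2 (0.96). These correlations are descriptions over 18 libraries in 6 groups that share their treatments and scaling, and carry no p.

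The partners of the MCM ring were then read from lists of its pathway. Under amiloride in KMS12-BM, 11 of the 14 genes for CMG partners and origin firing fell and 2 rose (median -0.75), and of 23 replication fork genes 16 fell and 1 rose (median -0.71). Over all genes the median was -0.02 and 35.2% fell. CDC45, the CMG component, fell by 2.99 ± 0.151, from 24.2 ± 3.66 to 3.02 ± 0.544 CPM (SD, n = 3; adjusted p = 4.95e-08, edgeR). GINS1, of the GINS complex, fell by 1.29, POLA2, a subunit of DNA polymerase alpha, by 3.37, and TIMELESS, a fork protection factor, by 1.89.

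The list of 10 origin licensing genes holds the loaders of the ring and also GMNN and MCMBP. Of these 10, 4 rose and 3 fell under amiloride in KMS12-BM, with a median of 0.13. These counts are near the 33.5% of all genes that rose and the 35.2% that fell. ORC1, CDC6 and CDT1 fell (log2 changes -1.52, -1.325 and -1.37, adjusted p at most 0.000251, edgeR), while ORC4, ORC5 and ORC6 rose by 0.99, 0.58 and 0.36. MCMBP, which binds MCM subunits, rose by 0.19 ± 0.079 (adjusted p = 0.0458, edgeR), and geminin (GMNN), the inhibitor of CDT1, was at -0.125 without a call. With the GC trend removed 6 licensing genes fell rather than 3. E2F1 fell by 0.535 ± 0.092 (adjusted p = 0.000292, edgeR), and of 8 E2F genes 5 fell and 2 rose. Of 10 genes of G2/M and mitosis 5 rose, among them AURKA by 0.90 and PLK1 by 0.69, and none fell, against 33.5% and 35.2% of all genes. With the GC trend removed 2 rose and 4 fell, without the third amiloride library 3 rose, and without the first untreated library 4 rose and 2 fell.

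In JJN3 amiloride lowered 8 of the 14 CMG and firing genes (median -0.33) and 10 of the 23 fork genes (median -0.25), raised none and 1, and lowered 4 of 10 licensing genes and raised 2. Of all genes, 23.9% fell and 19.7% rose. CDC45 fell by 1.11 ± 0.13, CDT1 by 0.86 ± 0.11, GMNN by 0.50 ± 0.09 and E2F1 by 0.26 ± 0.084 (adjusted p = 5.54e-05, 6.88e-05, 0.000745 and 0.023, edgeR). LIG1, the ligase that joins Okazaki fragments, fell by 1.14 and TICRR, an origin firing factor, by 0.65. CDC6 (-0.25, adjusted p = 0.0586) and MCMBP (-0.037) did not pass. Here 7 of 10 G2/M genes fell, including CCNB2 by 0.75 and TOP2A by 0.55. Of those 10 genes 9 had a lower response in JJN3 than in KMS12-BM in the interaction test, against 21.6% of all genes, and CDC45 had a higher one by 1.89 ± 0.213 (adjusted p = 7.61e-07, edgeR), as MCM4 and MCM10 did. HROB, which recruits the MCM8-MCM9 helicase, fell by 0.70 ± 0.095 in JJN3 and had -0.096 without a call in KMS12-BM, and that difference passed (-0.60 ± 0.15, adjusted p = 0.00274, edgeR).

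Fork and licensing genes were higher after TG003 in both lines. The different read placement of the TG003 libraries cannot be told apart from the drug in these values. Of the 23 fork genes 14 rose and 1 fell in KMS12-BM (median 0.34) and 15 rose and none fell in JJN3 (median 0.51). Of the 10 licensing genes 7 and 5 rose and none fell, against 26.9% and 26.2% of all genes that rose. POLE2, a subunit of DNA polymerase epsilon, rose by 1.94 ± 0.085 in KMS12-BM and by 1.68 in JJN3, TIMELESS by 0.82 and 0.91, and ORC5 by 0.69 and 1.105. Of the CMG and firing genes 5 rose and 1 fell in KMS12-BM, with CDC7, the kinase that phosphorylates the MCM ring, higher by 0.86 and DONSON lower by 0.86. In JJN3 7 rose and 2 fell, with CDC45 higher by 0.48 ± 0.127 (adjusted p = 0.00619, edgeR). E2F1 did not pass in either line (-0.055 and 0.08), and of the 8 E2F genes 4 and 5 fell. Of 10 G2/M genes 5 fell in each line and none rose. Of all genes 31.7% fell in KMS12-BM and 32.1% in JJN3. PLK1 was at -1.045 in KMS12-BM and -0.65 in JJN3, both called, and in KMS12-BM 9 fell once the GC trend was removed.

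**Figure D4:**
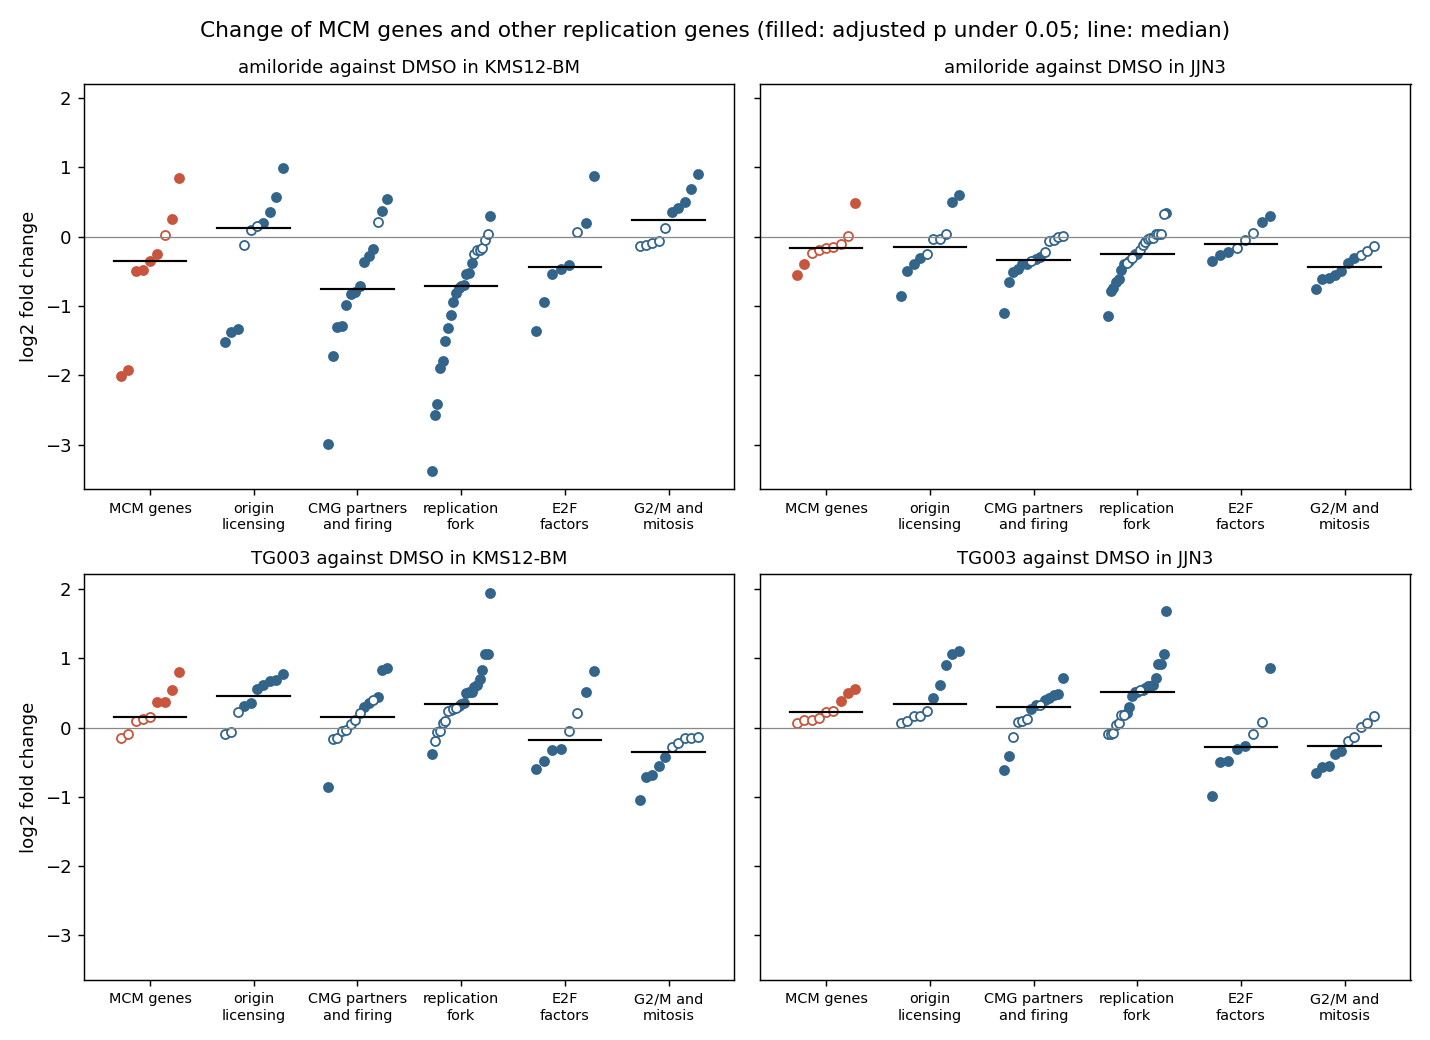
Log2 fold change against DMSO of the 9 MCM genes and of the genes on 5 lists of the replication pathway, 1 panel per drug and line; each point is a gene, filled where its adjusted p was under 0.05, and the line is the median of the list. In KMS12-BM amiloride puts the medians of the CMG and fork lists at -0.75 and -0.71, below that of the MCM genes at -0.35, and TG003 puts the fork median at 0.34 in KMS12-BM and 0.51 in JJN3.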

How the data were processed

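RNA of 18 libraries was measured by sequencing with a strand-specific TruSeq kit, per the labels' protocols. The authors deposited whole-number read counts per Ensembl gene. The submitters' processing notes name cutadapt 1.4, TopHat2 2.0.11, HTSeq 0.6.1p1, DESeq2 1.12.4 and hg19, without roles. Of the alignment options, annotation and strand setting, none is given in the sources used here. HTSeq's rows for reads outside genes (17.5% to 31.2% of records) were kept out. The deposited normalized tables were not used. Reads at more than 1 position were not counted, which lowers counts in copied sequence. Reads are not independent molecules.

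Counts were fitted in edgeR 4.0.16 (R 4.3.3) with filterByExpr (minimum count 10, total 15), TMM scaling and robust quasi-likelihood F tests. Each line's 9 libraries were fitted alone, and all 18 for the untreated lines and the 2 interactions. A gene was called at a Benjamini-Hochberg adjusted p under 0.05 over all genes tested. Standard errors are the log2 change over the square root of F, an approximation. Levels are CPM on 1 TMM scale. Symbols, lengths and GC content came from GENCODE on GRCh37, which matched 55538 identifiers. The fit was checked on simulated counts in which few genes changed, as many up as down. It was not checked for comparisons in which most genes change. No 2 replicate libraries agreed within counting noise. All 9 members were named in every comparison, together with the leading 2 genes of the first 3 lists and 7 set genes (CDC45, CDT1, CDC6, GMNN, MCMBP, HROB, E2F1); other list genes given by value (GINS2, ORC4 to ORC6, AURKA, PLK1, CCNB2, TOP2A and second-line values) were chosen after their values were seen. The members and lists were chosen with earlier results of these data known. Library numbers fall in 3 consecutive sets per line. Correlations of deviations within sets were all over 0.1 in TG003 against DMSO in both lines (0.108 to 0.281) and amiloride against TG003 in KMS12-BM. For amiloride against DMSO they were 0.094 to 0.251 in KMS12-BM and 0.019 to 0.087 in JJN3. For amiloride against TG003 in JJN3 they were -0.061 to 0.21. Between sets the medians were -0.133 in KMS12-BM, where 3 of 18 pairs were over 0.1, and -0.073 in JJN3. The cut of 0.1 is thus not a sharp divide. The pairing comes from these data and the titles, and the labels do not explain the numbers. Alternatives were other scalings, filters, tests and samples, a block for the sets, removal of the GC trend, and leaving out each library.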

Additional observations from a re-analysis of the deposited data

Results flagged for a closer look

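The response of 4 gene and drug pairs differed between the lines by the interaction test in edgeR. These were 3 of 9 genes for amiloride, against 43.2% of all genes tested, and 1 of 9 for TG003, against 13.9%. For amiloride the JJN3 minus KMS12-BM differences on the log2 scale were 1.475 for MCM4, 1.768 for MCM10 and -0.348 for MCM9, with the dose different between the lines (0.1 and 0.4 mM). MCM4 and MCM10 fell in KMS12-BM, where all 3 treated libraries lay below all untreated ones, and in JJN3 MCM4 fell less and MCM10 did not pass. MCM9 rose in both lines, and its difference missed the threshold when any of several single libraries was left out. For TG003, at the same dose in both lines, the difference was -0.459 for MCM3, which rose in KMS12-BM and not detectably in JJN3, where its level without drug was 4.98-fold higher.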

How the results depend on the processing

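Of the 42 calls among 81 gene results, 34 held under every alternative run, 8 were lost under at least 1 and none changed sign. The 8 were MCM2, MCM5, MCM6 and MCM7 under amiloride in KMS12-BM, MCM2 under amiloride in JJN3, MCM4 and MCM10 between the untreated lines, and MCM9 in the amiloride interaction. MCM genes called rose from 3 to 5 for TG003 in JJN3 with no filter on low counts. For the TG003 interaction they rose from 1 to 2 with no filter or with the compared groups alone. The number of all genes called moved between settings too. Leaving aside the fits that drop a library, it ran from 8261 to 9950 for TG003 in JJN3, against 9161. For the TG003 interaction it ran from 2489 to 3133, against 2476. With the replicate block, 5 rather than 3 were called for amiloride in JJN3, and all genes called there rose from 6842 to 7425. In that comparison the correlations within sets were low, 0.019 to 0.087. Apart from MCM5 under TG003 in JJN3, the block added MCM5 (-0.192) and MCM6 (-0.244) there, MCM3 (-0.213) and MCM8 (-0.218) for amiloride against TG003 in JJN3 and MCM5 (0.283) in the amiloride interaction, and it changed no other call. The alternative that joins the block with removal of the GC trend was chosen after seeing the data. Upper-quartile scaling moved the median of all genes by -0.147 for amiloride against TG003 in KMS12-BM.

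Every value that changed sign belonged to a gene that had not passed, and the cause was not tested. MCM9 for amiloride against TG003 in JJN3 (-0.01) became 0.00425 with DESeq2 size factors, 0.0221 with no filter, 0.00189 with a filter of 1 CPM, 0.00334 in DESeq2, 0.0406 with the GC trend removed and 0.0376 with the block too. In KMS12-BM MCM9 became -0.102 with upper-quartile scaling, -0.0311 with the GC trend removed and -0.0306 with the block too. Under amiloride, MCM3 in KMS12-BM became -0.0472 with upper-quartile scaling, and MCM7 in JJN3 -0.000284 in limma voom. With the GC trend removed, and then with the block too, MCM8 under TG003 in JJN3 became -0.00708 and -0.00421, MCM2 between the untreated lines 0.00914 and 0.00883, and MCM2 in the amiloride interaction -0.206 and -0.214. MCM5 in that interaction became -0.00465 with both. MCM6 in the TG003 interaction became 0.000116 with no filter and 0.037 with the compared groups alone. Leaving out 1 library gave ranges that crossed 0 for amiloride against DMSO, MCM3 in KMS12-BM (-0.00299 to 0.0449) and JJN3 (-0.154 to 0.00471) and MCM7 in JJN3 (-0.0986 to 0.137). It did so for MCM9 between the drugs in KMS12-BM (-0.0285 to 0.124) and JJN3 (-0.0617 to 0.058), and for MCM6 in the amiloride (-0.113 to 0.105) and TG003 (-0.0595 to 0.0368) interactions. The lowest member count in a library was 329 reads, for MCM9, and what depth adds to the spread was not tested.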
